A study of Mus musculus with 12 samples.

Results

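E14 mouse embryonic stem cells depleted of Setdb1 were compared between 2 culture media, 2i and serum. E14 is a feeder-independent line of 129/Ola background. All 12 libraries of the study came from this line after infection with a lentiviral shRNA vector, selection with 1 µg/ml puromycin from 48 hours after infection and collection after 3 days of selection. The comparison used the 6 libraries that carry the shRNA against Setdb1 (shSetdb1), 3 grown in serum with LIF and 3 grown in 2i, chosen by their column labels in the gene table and the repeat table. The other 6 libraries, with a scrambled shRNA (shScr) in the same media, served as the control cells. The 2i medium lacked serum and combined N2, B27 and LIF with PD0325901, which inhibits MEK, and CHIR99021, which inhibits GSK3, so the media differ in more than the inhibitors. A rescue with Setdb1 or a second shRNA against it is not among the labels. Whether the replicates were grown as separate cultures is not labelled either, and the p-values therefore describe the spread between these libraries, which may be technical.

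SETDB1 is a histone methyltransferase that places trimethylation on H3K9, is brought to retroviral sequences by TRIM28 and KRAB zinc finger proteins, and is known for keeping endogenous retroviruses silent in embryonic stem cells. In 2i, block of MEK stops ERK from being activated, and block of GSK3 stabilises β-catenin and relieves TCF7L1 repression. Cells in 2i are known for uniform expression of naive pluripotency factors and low DNA methylation, whereas serum cultures hold a mixture of states with ERK active.

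Total RNA depleted of ribosomal RNA was sequenced, and libraries held 4821181 to 15509401 gene reads and 4407665 to 8962913 repeat reads. The shallowest gene library was 2i replicate 3 of the depleted cells. Structural RNA and tRNA repeats took 15.6 to 42.6% of repeat reads in the serum-grown depleted cells and 19.9 to 69.5% in the 2i-grown ones, so this share moved with the medium and also varied within each group. In each group of the study it was highest in replicate 3, which also had the fewest gene reads. Setdb1 itself stood at 418, 379 and 409 normalised reads (reads per library scaled by its size factor) in serum replicates 1 to 3 of the depleted cells and at 837, 610.2 and 340.1 in 2i, against 2959, 2237 and 1587 in serum control cells and 3607, 2724 and 2253 in 2i control cells. The 6 depleted libraries lay below all 6 control libraries. Knockdown minus control was -2.33 ± 0.33 (SE) on the log2 scale in serum and -2.24 ± 0.33 in 2i, and the 2i minus serum difference in depleted cells was 0.44 ± 0.33 (limma adjusted p = 0.51). Summed normalised reads of 8 embryonic stem cell markers were 36060 to 59908 in serum-grown and 35725 to 56379 in 2i-grown depleted cells. Summed trophoblast markers were 332 to 975 in serum and 659.9 to 1531 in 2i, and none of the 4 tested passed. Krt18 stood at 652, 90.4 and 19.4 and Krt8 at 427, 33.5 and 2.77 in 2i replicates 1 to 3. Krt7 had 0.761, 0.842 and 8.63 in serum and 31.5, 40.6 and 91.3 in 2i (1.54 ± 0.46, limma adjusted p = 0.0811). Tcfap2c differed by 0.23 ± 0.48. The fibroblast and primitive endoderm sums stand with those lists below. Summed mesoderm markers were 8.63 to 37.3 in serum and 9.14 to 79.9 in 2i. Summed neural markers were 389 to 616 in serum and 389 to 755 in 2i, and no tested marker of either type passed. The mesoderm marker T had 6.08, 5.05 and 0.959 in serum and 36.1, 0 and 30.4 in 2i (0.54 ± 0.46). Of the defining markers of other cell types, Elf5 (trophoblast), Mixl1 and Mesp1 (mesoderm) and Prrx1 (fibroblast) had no read in any depleted library. The other markers measured had reads in these cells.

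Below, a difference is 2i minus serum on the log2-like scale of the deposited values, ± SE, from limma fitted over all features of a table. A feature passed at an adjusted p under 0.05. Replicate numbers refer to the depleted cells unless control cells are named. Among depleted cells 543 of 14487 genes tested passed (3.75%), of which 311 were higher in 2i (2.15%) and 232 lower (1.6%). Of the 1097 repeat families tested, 6 passed (0.547%), and all were higher in 2i. The count of genes depended on single libraries: it was 144 without serum replicate 2, 213 without 2i replicate 3, 251 without serum replicate 1, 297 without 2i replicate 2 and 1514 without 2i replicate 1, and 130 of the 543 genes passed in every fit that left out 1 of the 6 libraries. Voom on the recovered reads called 240, and a fit with the structural RNA share as a covariate 512. Of the 90 named features that passed, 39 passed in all 6 fits without 1 library, 50 with voom and 78 with the covariate, and none changed sign. Spry4, Id1, Gm98, Coch and Pramel6, stable in the 6 fits, did not pass with voom. The 12 lost with the covariate were Dusp1, Braf, Dppa2, Wnt8a, Id2, Cubn, Neurod1, Myl9, Piwil2, Zscan4e, 4930550L24Rik and RLTR10D. RNA from bulk cultures was measured, so fewer cells of a type and less RNA per cell cannot be told apart in any of the differences below.

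Some feedback genes of the ERK pathway fell in 2i. Of 27 tested members of the ERK response list, 4 fell (Spry4, Etv4, Dusp4 and Dusp6), 1 rose (Dusp1) and 22 did not pass. The share that passed was 18.5%, against 3.75% of all genes. The median difference was -0.75, against -0.05 over all genes. Without 1 of the 6 libraries 3 to 7 fell, the most without 2i replicate 1. Spry4, a Sprouty protein that restrains receptor tyrosine kinase signalling, stood at 1222, 745 and 96.8 normalised reads in serum replicates 1 to 3 and at 33.0, 0 and 0 in 2i (-4.00 ± 0.71, adjusted p = 0.00639). The PEA3-family ETS factor Etv4, induced by FGF signals, stood at 346, 143 and 235 in serum and 1.54, 8.12 and 0 in 2i (-3.21 ± 0.44, adjusted p = 0.0013), a 75.0-fold lower mean. For both genes every 2i library lay below every serum library, as it did for 10.1% of all genes (8.99% lay wholly above), and the control cells showed falls of the same sign (Spry4 -3.72, Etv4 -1.73). Dusp4, a nuclear phosphatase of MAP kinases, had 678, 314 and 125 normalised reads in serum and 13.1, 0 and 30.4 in 2i (-3.09 ± 0.49, adjusted p = 0.00377). Dusp6, the cytoplasmic ERK phosphatase, had 1304, 616 and 402 in serum and 118, 61.9 and 11.1 in 2i (-3.04 ± 0.60, adjusted p = 0.011). Dusp6 lost its call without serum replicate 1, serum replicate 2 or 2i replicate 3, whereas Spry4, Etv4 and Dusp4 kept theirs in all 6 such fits.

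Not every ERK feedback gene moved the same way. Dusp1, a phosphatase induced by stress as well as by mitogens, was higher in 2i, with 23.6, 70.7 and 34.5 normalised reads in serum and 105, 208 and 224 in 2i (1.46 ± 0.38, adjusted p = 0.045), a call that was lost without any of the 6 libraries other than 2i replicate 1. The ETS factor Etv1 (-2.40 ± 0.75, adjusted p = 0.0947) and the RAS-RAF inhibitor Spred1 (-1.62 ± 0.54, adjusted p = 0.113) did not pass. Among the 22 tested components of the pathway (receptors, adaptors and kinases) the median was -0.12 and 1 fell (4.55%, against 3.75% of all genes). It was the kinase Braf, from 1692, 1323 and 682 normalised reads in serum to 607, 304 and 91.3 in 2i (-1.95 ± 0.47, adjusted p = 0.0339). This call held only with serum replicates 1 and 2 and 2i replicates 2 and 3 all present. The FGF receptors with the largest differences, Fgfr2 (-1.19) and Fgfr3 (-0.90), did not pass. A CArG box, the binding sequence of serum response factor, was in 3 of the 19 ERK response promoters given by RefSeq (250 bases before to 50 after the start; GRCm38.p6), against 1.81% of the promoters of 27025 genes. The Dusp6 and Dusp1 promoters held none.

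**Figure D1:**
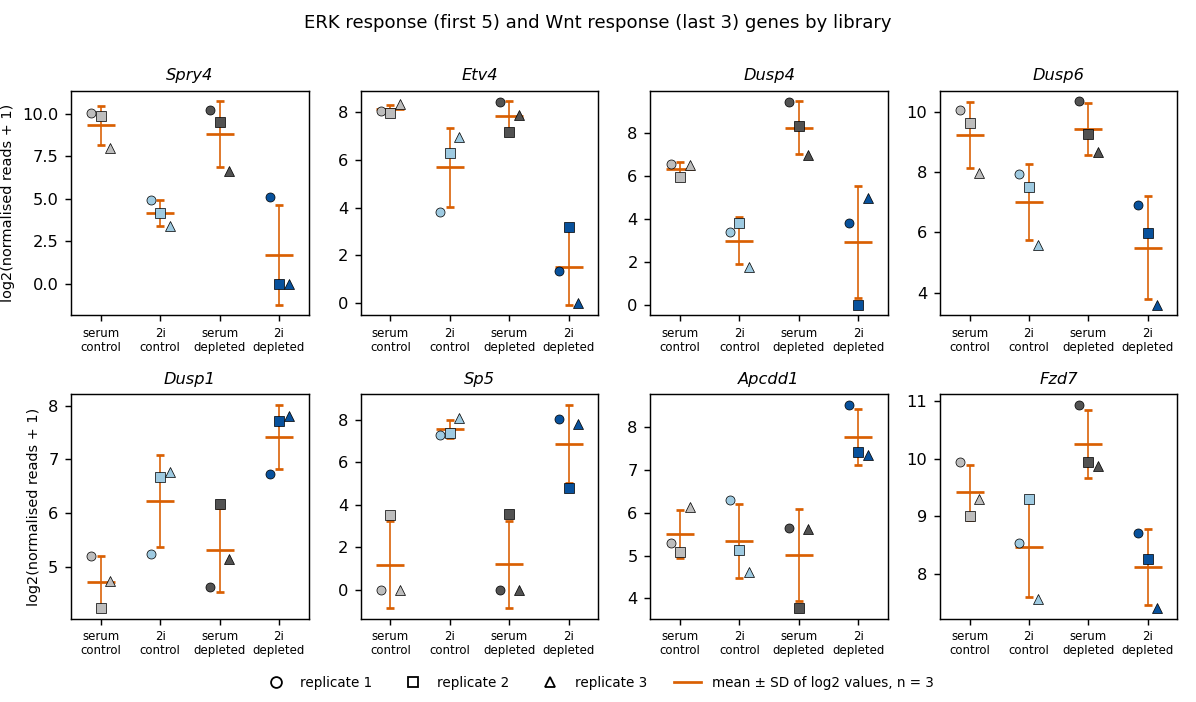
Log2 of normalised reads plus 1 in each library for 5 ERK response genes and 3 Wnt response genes, with control and Setdb1-depleted cells in each medium; symbols are replicates, orange lines the mean ± SD of the log2 values (n = 3), and each panel has its own vertical range. In depleted cells Spry4, Etv4, Dusp4, Dusp6 and Fzd7 sit lower in 2i and Dusp1, Sp5 and Apcdd1 higher, with no overlap between the 3 serum and 3 2i libraries.

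Wnt response genes moved in both directions. Of 21 tested, 2 rose (Sp5 and Apcdd1) and 1 fell (Fzd7), so 14.3% passed, against 3.75% of all genes. The median was 0.17. The median turned to -0.26 without 2i replicate 1, with 3 rises and 2 falls. Sp5, a zinc finger factor that is a direct Wnt target, had 0, 10.9 and 0 normalised reads in serum replicates 1 to 3 and 267, 26.4 and 227 in 2i (2.65 ± 0.53, adjusted p = 0.0122). It was at 0 in 2 of the 3 serum libraries and detected in every 2i library, with the lowest 2i value in replicate 2, and its call was lost without serum replicate 1 or 2i replicate 3. Apcdd1, a membrane inhibitor of Wnt signals, had 49.4, 12.6 and 47.9 in serum and 368, 169.5 and 163 in 2i (1.89 ± 0.40, adjusted p = 0.0156), and lost its call without serum replicate 2. Its difference in control cells was -0.08, and the difference between depleted and control cells did not pass (1.97 ± 0.56). The Wnt receptor Fzd7 fell from 1960.1, 989 and 935 to 417, 306 and 169 (-1.97 ± 0.42, adjusted p = 0.0178), a call lost without serum replicate 1 or 2 or 2i replicate 2 or 3.

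The negative feedback gene Axin2 did not pass. It had 135, 152 and 70.9 normalised reads in serum and 937, 193 and 277 in 2i (1.43 ± 0.43, adjusted p = 0.0812), with 2i replicate 1 far above the other two although the groups did not overlap, and its difference in control cells was 2.51. The homeobox gene Nkx1-2 was nearly silent in serum (0, 0 and 0.959) and low in 2i (112, 16.2 and 11.1; 1.57 ± 0.45, adjusted p = 0.0657), while in 2i control cells it had 592, 291 and 523 normalised reads. None of the 21 pathway components passed (3 fell without 2i replicate 1), with a median of -0.18; Porcn, which acylates Wnt ligands (-1.51), and the receptor Fzd2 (-1.17) had the largest differences. The TCF/LEF core CTTTGA, searched on both strands, was in 7 of the 17 Wnt response promoters given by RefSeq and in 18.2% of all promoters. The Fzd7 promoter did not hold this core. The promoter of Sp5, shown because it is the Wnt target with the largest rise, holds it in 2 places (capitals), the first of them 204 bases before the start; it lies on the plus strand at chr2:70474673-70474972 of GRCm38.p6.
Sp5: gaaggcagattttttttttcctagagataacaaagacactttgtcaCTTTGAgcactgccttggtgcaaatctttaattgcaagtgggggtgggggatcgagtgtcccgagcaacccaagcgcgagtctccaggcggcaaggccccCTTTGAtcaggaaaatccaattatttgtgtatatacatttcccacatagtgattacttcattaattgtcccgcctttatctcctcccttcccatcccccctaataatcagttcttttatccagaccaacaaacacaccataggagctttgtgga

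Of 20 naive genes tested, 3 rose (Spic, Tcfcp2l1 and Prdm14) and none fell, so 15% passed, against 3.75% of all genes. Of the 20, 17 had a positive difference, and the median was 0.81. Without 1 library 1 to 5 rose, and 1 fell without 2i replicate 1. The ETS factor Spic had 95.8, 163 and 93.0 normalised reads in serum and 387, 2097 and 1833 in 2i (2.96 ± 0.54, adjusted p = 0.00763), every 2i library above every serum library. Tcfcp2l1 (Tfcp2l1 in current names), a factor of the naive network downstream of LIF, had 4112, 1578 and 1587 in serum and 14237, 5654 and 6272 in 2i (1.85 ± 0.46, adjusted p = 0.0363). Prdm14, a regulator of germ cell fate that restrains Dnmt3 genes and FGF signalling, had 70.0, 64.8 and 112 in serum and 254, 416 and 232 in 2i (1.47 ± 0.33, adjusted p = 0.022). Spic kept its call whichever of the 6 libraries was left out. Tcfcp2l1 kept it only without serum replicate 1, and Prdm14 lost it without serum replicate 1 or 2 or 2i replicate 2. Klf2 (1.02 ± 0.30, adjusted p = 0.079), Tbx3 (1.18 ± 0.42, adjusted p = 0.139), Nanog (1.00 ± 0.38, adjusted p = 0.175), Klf4 (0.46 ± 0.37, adjusted p = 0.536) and Esrrb (0.43 ± 0.31, adjusted p = 0.483) had positive differences that did not pass. They were named outside the naming rule, and the 3 naive genes with a negative difference, not named here, did not pass either. The oocyte and embryo factor Dppa3 (1.82 ± 0.86, adjusted p = 0.271) and the AKT co-activator Tcl1 (1.25 ± 0.42, adjusted p = 0.118) had the largest of those that did not pass.

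Of 16 general pluripotency genes tested, 3 fell (18.8%, against 3.75% of all genes), none rose and the median was -0.69. There were 5 falls without 2i replicate 1 and 0 to 1 without any other library. Pou5f1 had 11576, 10189.6 and 13336 normalised reads in serum and 9358, 12847 and 13262 in 2i, a difference of 0.01 ± 0.32, and Sox2 differed by 0.24 ± 0.30. Lin28a, an RNA-binding protein that blocks let-7 processing, had 6215, 4366 and 2201 in serum and 1979, 372 and 492 in 2i (-2.37 ± 0.59, adjusted p = 0.0365). The paired SAP-domain proteins Dppa2 and Dppa4 fell by different amounts: Dppa2 had 948, 1506 and 1146 in serum and 657, 222 and 179.7 in 2i (-1.83 ± 0.46, adjusted p = 0.0407), and Dppa4 1385, 1483 and 2016 in serum and 594, 718 and 733 in 2i (-1.19 ± 0.29, adjusted p = 0.0358). In all 3 genes the groups did not overlap, but none of the 3 passed without serum replicate 1 or 2 or 2i replicate 2 or 3, and the Dppa2 and Dppa4 calls also needed serum replicate 3.

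Primed and early post-implantation genes held the most falls of the 30 gene lists with all libraries in the fit. Without 2i replicate 1 they had 8, fewer than the imprinted (11) and 2-cell-stage (10) lists, and without serum replicate 2 they had 3. Of 22 tested, 7 fell and 1 rose, so 36.4% passed, against 3.75% of all genes. Of the 22, 19 had a negative difference, and the median was -0.93. Dnmt3a, a de novo DNA methyltransferase, had 3604, 3358 and 1329 normalised reads in serum replicates 1 to 3 and 611, 194 and 252 in 2i (-2.85 ± 0.46, adjusted p = 0.00387). The ectonucleotidase Enpp3 had 5006, 2278 and 1449 in serum and 209, 119 and 124 in 2i (-3.79 ± 0.65, adjusted p = 0.00503); in control cells it was much lower in serum (401, 388 and 17.1) and differed by -1.84. The HMG-box factor Sox4 had 642, 533 and 412 in serum and 148, 72.1 and 11.1 in 2i (-2.53 ± 0.43, adjusted p = 0.00503). These 3 genes kept their calls in all 6 fits without 1 library.

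The other primed genes that passed were less stable. The POU factor Pou3f1 (Oct6), with 216, 318 and 22.1 normalised reads in serum and 3.84, 0 and 0 in 2i (-2.80 ± 0.52, adjusted p = 0.00785), lost its call without serum replicate 2. Falls of the ligand Wnt8a (-2.15 ± 0.51, adjusted p = 0.0292), the zinc finger factor Sall2 (-2.05 ± 0.44, adjusted p = 0.0179) and the tight junction protein Cldn6 (-1.94 ± 0.39, adjusted p = 0.0117) ended without serum replicate 2 or 2i replicate 3. Wnt8a and Sall2 also needed serum replicate 1, and Wnt8a 2i replicate 2. The 1 gene that rose was Fst (follistatin, which binds and blocks activins), with 43.4, 10.1 and 15.3 in serum and 195, 125 and 124 in 2i (1.75 ± 0.35, adjusted p = 0.0116; 2.04 in control cells), a call lost without serum replicate 2. Dnmt3b, with 9277, 7139 and 1378 in serum and 3748, 569.5 and 675 in 2i (-1.94 ± 0.78, adjusted p = 0.192), and Otx2 (-1.75 ± 0.72, adjusted p = 0.208) did not pass, and their libraries overlapped between the media.

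**Figure D2:**
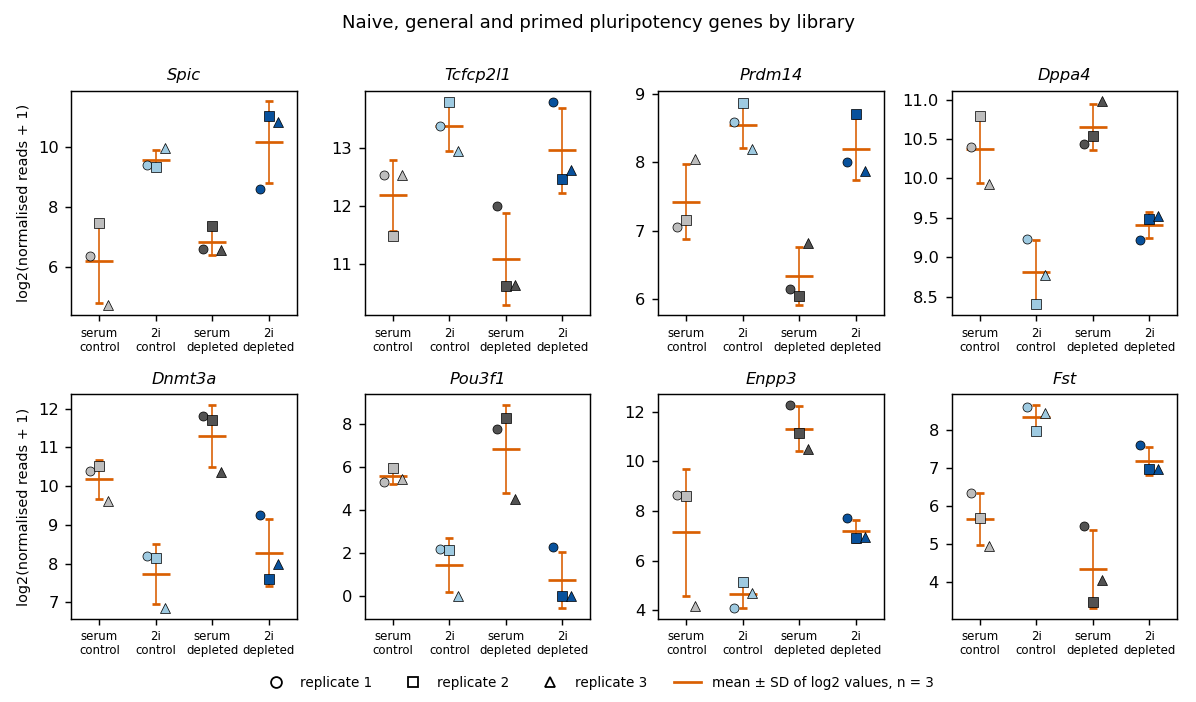
Log2 of normalised reads plus 1 in each library for 3 naive genes (Spic, Tcfcp2l1, Prdm14), the general pluripotency gene Dppa4 and 4 genes of the primed list; symbols are replicates, orange lines the mean ± SD of the log2 values (n = 3), and each panel has its own vertical range. In the depleted cells the naive genes and Fst are higher in 2i and Dppa4, Dnmt3a, Pou3f1 and Enpp3 lower, and in control cells the 8 group means differ in the same directions.

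Of 21 genes tested in the Nodal and BMP list 3 target genes fell (14.3%, against 3.75% of all genes). None rose and the median was -0.27. Falls numbered 5 without 2i replicate 1 and 1 without serum replicate 2. Id1, an inhibitor of basic helix-loop-helix factors that BMP signals induce, had 217, 371 and 56.6 normalised reads in serum and 2.31, 0 and 0 in 2i (-3.15 ± 0.49, adjusted p = 0.00329), so it was nearly silent in 2i. Its relative Id2 had 202, 284 and 196 in serum and 72.2, 46.7 and 55.3 in 2i (-1.47 ± 0.37, adjusted p = 0.0396), a call that held without 2i replicate 1 only. Skil (SnoN), a SMAD co-repressor induced by Nodal and TGF-β, had 8856, 9395 and 3432 in serum and 1039, 1331 and 1441 in 2i (-2.35 ± 0.43, adjusted p = 0.00713) and lost its call without serum replicate 2. Id3 (-1.42 ± 0.65, adjusted p = 0.253) and the activin subunit Inhbb (-1.68 ± 0.47, adjusted p = 0.0626) did not pass.

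The lineage lists held at most 2 passing members each. The shares were 14.3% in primitive endoderm, 20% in trophoblast, 16.7% in neural, 16.7% in fibroblast and 0% in mesoderm, against 3.75% of all genes. With 1 of the 6 libraries left out, the most were 5 falls in primitive endoderm, without 2i replicate 1. In the primitive endoderm list 2 of 14 fell: the laminin chain Lamb1, with 1358, 1755 and 731 normalised reads in serum and 346, 101 and 30.4 in 2i (-3.02 ± 0.49, adjusted p = 0.00411), and the endocytic receptor Cubn (-1.83 ± 0.42, adjusted p = 0.0253, a call that ended without serum replicate 1 or 2 or 2i replicate 2 or 3). The summed level of 7 defining primitive endoderm markers was 70.0 to 211 normalised reads in serum and 5.53 to 113 in 2i, and none of the 5 tested passed. In the trophoblast list 2 of 10 rose, Tead4 (1.86 ± 0.43, adjusted p = 0.026), which with YAP drives trophectoderm fate, and Sox21 (1.63 ± 0.38, adjusted p = 0.0275); neither call survived the loss of serum replicate 1 or 2 or 2i replicate 3, and that of Sox21 also needed 2i replicate 2. Neurod1 was the 1 of 6 neural genes that fell (-1.79 ± 0.47, adjusted p = 0.0482; lost without serum replicate 1 or 2 or 2i replicate 2 or 3), and none of 6 mesoderm genes passed. The fibroblast list had 1 of 6 members higher, the proteoglycan gene Lum, with 6.85, 5.05 and 2.88 in serum and 736, 102 and 542 in 2i (3.53 ± 0.48, adjusted p = 0.0013). Lum was at or near 0 in both control groups and low in serum, so only the 2i-grown depleted cells carried it past the filter. Groups with so few reads add little spread, so its SE and p-value may understate the spread in 2i. Summed reads of 10 fibroblast markers were 91.0 to 102 in serum and 159 to 1407 in 2i, of which Lum and Col5a2 (638, 32.5 and 265 in 2i, 2.14 ± 0.60, adjusted p = 0.0626) made the larger part. Twist1 was lower on average (-1.10 ± 0.32, adjusted p = 0.069). Whether other cells contributed was not tested.

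Of the DNA methylation list 10.5% passed, of the Polycomb list 11.1% and of the H3K9 list 2.94%, against 3.75% of all genes. Each share rests on 1 or 2 genes. Without 2i replicate 1 the falls were 5 in the DNA methylation list and 3 in the H3K9 list. In the DNA methylation list 2 of 19 fell, Dnmt3a and Uhrf2 (-0.92 ± 0.24, adjusted p = 0.0445), and the median was -0.41. The maintenance genes Dnmt1 (-0.35 ± 0.40, adjusted p = 0.677) and Uhrf1 (0.15 ± 0.38, adjusted p = 0.868) did not pass, nor did Dnmt3l, with 4783, 4051 and 1093 normalised reads in serum and 2604, 659 and 94.0 in 2i (-2.16 ± 1.03, adjusted p = 0.275). Of 34 genes of H3K9 methylation and retroelement silencing 1 fell, Suv39h1, the methyltransferase of pericentric heterochromatin, from 359, 448 and 434 to 189.8, 197 and 99.6 (-1.20 ± 0.30, adjusted p = 0.0371), and the list median was -0.33. The calls of Uhrf2 and Suv39h1 held without 2i replicate 1 only. Trim28, the co-repressor that recruits SETDB1, had 21187, 10212 and 8095 in serum and 13214, 7433 and 7912 in 2i (-0.39 ± 0.44, adjusted p = 0.677). In the Polycomb list Bmi1, a subunit of PRC1, rose 2.99-fold from 215, 201 and 199 to 653, 530 and 658 (1.40 ± 0.27, adjusted p = 0.00901), and another PRC1 subunit, Phc1, fell from 2616, 3839.5 and 1314 to 994, 372 and 235 (-2.29 ± 0.47, adjusted p = 0.0132). Bmi1 lost its call without serum replicate 2, and Phc1 without serum replicate 1 or 2 or 2i replicate 2 or 3.

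Among retroviral repeats, 2 intracisternal A particle (IAP) families rose most in reads. IAPs are class II endogenous retroviruses with recent insertions in mouse strains, made of internal sequence (IAPEz-int) and flanking long terminal repeats such as IAPLTR1_Mm. IAPEz-int had 38122, 39602 and 72959 normalised reads in serum replicates 1 to 3 and 183625, 175701 and 215061 in 2i, a 3.81-fold higher mean (1.99 ± 0.31, adjusted p = 0.00283). IAPLTR1_Mm had 2364, 2516 and 4178 in serum and 11702, 11333 and 16029 in 2i, 4.31-fold higher (2.13 ± 0.27, adjusted p = 0.000503). All 3 libraries in 2i lay far above all 3 in serum for both, both calls held in all 6 fits without 1 library, and both exceeded the median difference of all repeat families, -0.29. All IAP families together took 1.14, 1.11 and 2.40% of repeat reads outside structural RNAs in serum and 4.37, 6.29 and 7.24% in 2i, against 0.43 to 0.44% and 0.47 to 0.82% in serum and 2i control cells.

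In control cells neither of these 2 families passed. IAPEz-int had 14206, 13448 and 12524 normalised reads in serum control cells and 9032, 14830.1 and 9789 in 2i control cells (-0.29 ± 0.31, adjusted p = 0.517), and IAPLTR1_Mm 1126, 999 and 1078 and 807, 1231 and 722 (-0.25 ± 0.27, adjusted p = 0.517). The difference between depleted and control cells passed for IAPLTR1_Mm (2.38 ± 0.38, adjusted p = 0.011) and IAPEz-int (2.28 ± 0.44, adjusted p = 0.0488), the only 2 of 1097 families (0.182%; 9.48% at an unadjusted p under 0.05). Put the other way, the shRNA raised IAPEz-int by 1.84 ± 0.31 in serum and by 4.12 ± 0.31 in 2i. The sign held under every setting tried, from 1.83 to 2.58 for IAPEz-int and 1.95 to 2.63 for IAPLTR1_Mm, but the calls did not: with each library centred on its median the adjusted p was 0.305 and 0.235, and with quantile normalization 0.255 and 0.2. With the structural RNA share as a covariate they were 0.00208 and 0.00121. The IAPEz-int call also ended without any 1 library other than serum replicate 3 or 2i replicate 1 of the depleted cells or 2i replicate 2 of the control cells (adjusted p up to 0.281). That of IAPLTR1_Mm ended without serum replicate 1 or 2 of the depleted cells, serum replicate 1 or 3 of the control cells or 2i replicate 1 of the control cells (up to 0.0615).

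The other IAP families were less uniform. Of 16 IAP families tested 2 rose (12.5%, against 0.547% of all families) and 12 had a positive difference. In 7 the 2i libraries lay wholly above the serum libraries (3.74% of all families did, and 9.39% lay wholly below). The median was 0.91, against -0.32 in control cells. IAPEy-int had 577, 737 and 1992 normalised reads in serum and 2855, 17837 and 6118 in 2i (2.81 ± 0.66, adjusted p = 0.068) and IAPEY_LTR differed by 2.14 ± 0.51, adjusted p = 0.068; both were highest in 2i replicate 2 and did not pass. IAPLTR3-int (-0.47), IAPLTR4 (-0.90), IAPLTR4_I (-1.02) and IAPEY3-int (-0.36) had negative differences. In all 16 families the 2i minus serum difference was more positive in depleted than in control cells, though 2 passed. The same sign was found in 776 of all 1097 families (70.7%), among them all 32 LINE-1 families. The shRNA against Setdb1 raised 8 of the 16 in serum (3.28% of all families) and 15 in 2i (10.4% of all families). Without 2i replicate 1, 7 IAP families rose with the medium, and without serum replicate 3, 4 did.

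The remaining 4 families that rose were long terminal repeats. RLTR13B2 had 549, 527 and 523 normalised reads in serum and 3879.9, 2743 and 1568 in 2i, 5.12-fold higher (2.21 ± 0.29, adjusted p = 0.000503), and its difference in control cells was 1.04. LTRIS2, of the class I list, had 3093, 3503 and 2894 in serum and 9024, 8586 and 6619 in 2i, 2.55-fold higher (1.34 ± 0.21, adjusted p = 0.00283). RLTR13D4 (1.58 ± 0.29, adjusted p = 0.0133) lost its call without serum replicate 1 or 2i replicate 2, and RLTR10D (1.57 ± 0.34, adjusted p = 0.0469) without serum replicate 1 or 2 or 2i replicate 2 or 3. RLTR13B1 (0.92 ± 0.22, adjusted p = 0.068) and RLTR13C1 (1.09 ± 0.27, adjusted p = 0.0727), of the same name series, were higher in every 2i library and did not pass.

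No family of the other retroviral groups named here passed lower. MMERVK10C-int, an internal sequence of class II, had 62234, 51784 and 27668 normalised reads in serum and 31348, 5482 and 7966 in 2i (-2.01 ± 0.47, adjusted p = 0.068), and its long terminal repeat RLTR10C 7805, 6732 and 4858 and 4025, 1021 and 1973 (-1.65 ± 0.36, adjusted p = 0.0553); both lay lower in 2i on average and neither passed, although in either medium the shRNA raised MMERVK10C-int (by 3.40 in serum and 2.82 in 2i). In the early transposon elements, MMETn-int differed by -1.38 ± 0.59, adjusted p = 0.403 and ETnERV-int by -1.19 ± 0.49, adjusted p = 0.403. MERVL-int, whose transcripts mark 2-cell-like cells, had 59424, 120604 and 44884 in serum and 88703, 7284 and 19654 in 2i (-1.55 ± 0.66, adjusted p = 0.403), with 2i replicate 1 inside the serum range. In control cells the fall of MERVL-int was -4.60 (adjusted p = 0.00349); the difference between the 2 falls did not pass (3.05 ± 0.93, adjusted p = 0.445). None of 32 LINE-1, 92 MaLR, 26 SINE, 7 MERVL and MT2, 5 ETn and MusD, 5 satellite and 9 RLTR44 to RLTR46 families passed, and among 77 structural RNA and tRNA families none passed while the median was 0.60. These counts rested on 2i replicate 1: without it 15 structural RNA families rose (median 0.89), and 5 MaLR, 3 ETn and MusD and 2 MERVL and MT2 families fell. Over all repeat families 28 rose and 35 fell without it. The spliceosomal RNAs U4 (3.43 ± 0.85, adjusted p = 0.0727) and U6 (2.96 ± 0.76, adjusted p = 0.0872) had the largest of those differences, with 13156, 30286 and 288022 normalised reads of U6 in 2i replicates 1 to 3.

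Scaling bears on the direction of repeat calls. The median over all repeat families was -0.29 in depleted cells and -0.52 in control cells; with each library centred on its median it was -0.18 and -0.11. Centring gave 7 higher and 1 lower call in depleted cells and quantile normalization 8 higher and 1 lower, against 6 and 0. In control cells the 188 calls (6 higher, 182 lower) became 18 higher and 46 lower on centring and 18 higher and 16 lower on quantile normalization.

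**Figure D3:**
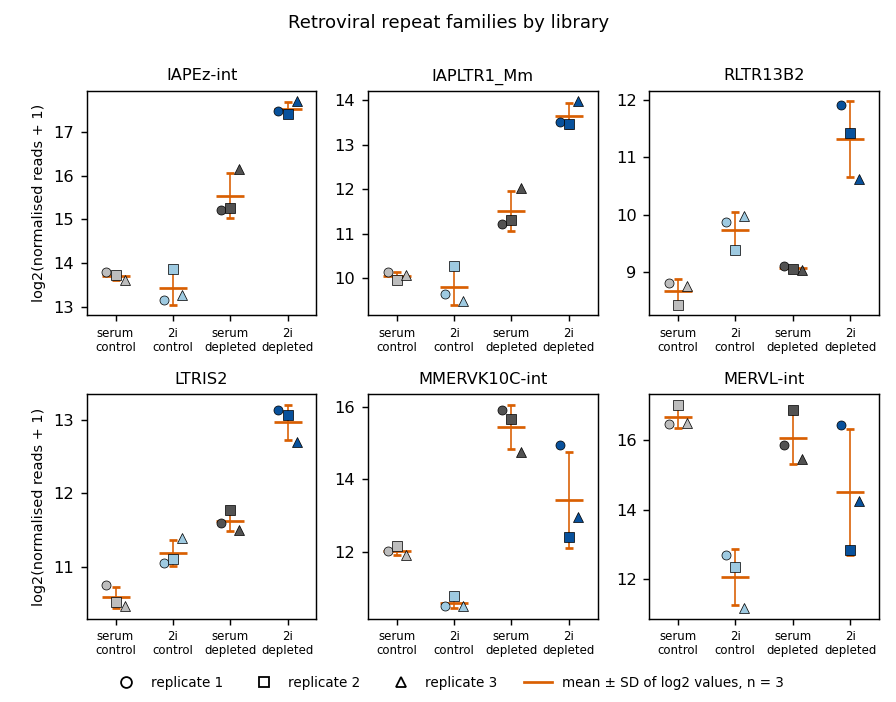
Log2 of normalised reads plus 1 in each library for 6 retroviral repeat families; symbols are replicates, orange lines the mean ± SD of the log2 values (n = 3), and each panel has its own vertical range. IAPEz-int and IAPLTR1_Mm are alike in serum and 2i control cells and higher in 2i than in serum in depleted cells, whereas MMERVK10C-int is lower in 2i in control cells and overlaps in depleted cells, and MERVL-int overlaps between the media in depleted cells.

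Several germline genes are known to be silenced by SETDB1. Of 40 tested 4 fell (10%, against 3.75% of all genes), none rose and the median was -0.05. This rested on 2i replicate 1, without which 8 rose, 3 fell and the median was 0.40; the other 5 fits without 1 library gave no rise and 0 to 3 falls. The RNA helicase Ddx4 had 406, 392 and 615 normalised reads in serum and 118, 235 and 69.1 in 2i (-1.58 ± 0.38, adjusted p = 0.031), and the piRNA-binding protein Piwil2 263, 376 and 245 and 96.1, 145 and 24.9 (-1.52 ± 0.38, adjusted p = 0.0396). The meiotic genes Meioc (listed as Gm1564, -1.43 ± 0.38, adjusted p = 0.0478) and Zcwpw1 (-1.12 ± 0.28, adjusted p = 0.0365) fell in the same direction. None of the 4 calls survived the loss of serum replicate 2 or 3 or 2i replicate 3; those of Ddx4, Piwil2 and Zcwpw1 also ended without serum replicate 1, and that of Meioc without 2i replicate 1 or 2. The RNA-binding protein Dazl varied widely within 2i, with 923, 703 and 1709 in serum and 1224, 8226 and 10707 in 2i (2.16 ± 0.77, adjusted p = 0.141), as did Fkbp6 (177, 1369 and 2337 in 2i, 2.09 ± 0.80, adjusted p = 0.171). In both genes 2i replicate 1 lay within the serum range and replicates 2 and 3 far above it.

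The 2-cell-stage list had a low median, -1.11, with 1 of 23 genes lower and 1 higher (8.7% passing, against 3.75% of all genes). Without 2i replicate 1, 10 were lower and 2 higher and the median was -1.58, and without the other libraries 0 to 3 were lower. Zscan4e, a zinc finger gene of 2-cell-like cells, had 486, 1566 and 1331 normalised reads in serum and 502, 11.2 and 108 in 2i (-2.79 ± 0.72, adjusted p = 0.0445), overlapping between the media with 2i replicate 1 beside serum replicate 1; its call was lost without serum replicate 2 or 3 or 2i replicate 2 or 3. The near-identical Zscan4 copies, whose reads cannot be assigned with certainty, behaved alike (Zscan4c -2.92, Zscan4f -3.08, neither passing). Pramel6, of the PRAME family, rose from 0, 2.53 and 5.75 to 48.4, 76.1 and 196 (2.20 ± 0.42, adjusted p = 0.00868) and kept its call in all 6 fits. In control cells 14 of the 23 genes fell, with a median of -2.90, but no gene of the list passed in the test of depleted against control cells.

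Of 26 interferon and double-stranded RNA sensing genes tested 5 rose (19.2%, against 3.75% of all genes) and none fell. Of the 26, 22 had a positive difference, and the median was 0.74. Oas1a, an oligoadenylate synthetase that senses double-stranded RNA, had 41.8, 64.0 and 88.2 normalised reads in serum and 389.7, 358 and 1054 in 2i (2.50 ± 0.40, adjusted p = 0.00387). Xaf1, an interferon-induced pro-apoptotic gene, had 38.0, 110.3 and 111 in serum and 504, 561 and 866 in 2i, 7.44-fold higher (2.48 ± 0.36, adjusted p = 0.0021). Rtp4, an interferon-induced chaperone, had no read in any serum library and 68.4, 26.4 and 221 in 2i (2.47 ± 0.40, adjusted p = 0.00411), and no read in any of the 6 control libraries. Only the 2i-grown depleted cells held reads of Rtp4, so it met the filter through them alone. The groups without reads add no spread, so its SE and p-value may understate the spread in 2i. Oas1a and Xaf1 kept their calls in every fit without 1 of the 6 libraries, and Rtp4 in the 4 that tested it. Without 2i replicate 1 or 3 it was below the filter. The list held 2 rises without 2i replicate 3 and 9 rises and 1 fall without 2i replicate 1. Irf9, an interferon regulatory factor, had 119, 154 and 129 in serum and 484, 334 and 678 in 2i (1.58 ± 0.30, adjusted p = 0.00945) and lost its call without 2i replicate 3, and B2m, the light chain of MHC class I, had 76.1, 118 and 159 and 371, 471 and 779.8 (1.86 ± 0.39, adjusted p = 0.0166) and lost it without serum replicate 1 or 2 or 2i replicate 3. The differences of Xaf1 and B2m in control cells were 2.04 and 1.73. The receptor Ddx58 (0.05 ± 0.79, adjusted p = 0.981) did not pass, nor did Usp18 (76.9, 0 and 205 in 2i, 1.87 ± 0.61, adjusted p = 0.11) and Oasl1 (1.53 ± 0.41, adjusted p = 0.053).

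Of 35 imprinted genes tested 2 fell (5.71%, against 3.75% of all genes), none rose and the median was -0.58. Falls numbered 11 without 2i replicate 1 and 0 without serum replicate 2. Cdkn1c, an inhibitor of cyclin-dependent kinases, had 713, 703 and 214 normalised reads in serum and 115, 23.4 and 22.1 in 2i (-2.70 ± 0.50, adjusted p = 0.00767), and Phlda2, a gene that limits placental growth, 89.0, 172 and 165 and 20.8, 15.2 and 27.7 (-1.67 ± 0.36, adjusted p = 0.0177). Both calls ended without serum replicate 2, and that of Phlda2 without 2i replicate 2. Peg10, itself derived from a retrotransposon, ranged widely in 2i (2464, 15.2 and 0, against 4383, 2071 and 593 in serum; -3.70 ± 1.28, adjusted p = 0.13), and so did H19 (171, 0 and 0 in 2i, 138, 214 and 224 in serum; -2.30 ± 0.67, adjusted p = 0.0709). In both, 2i replicate 1 kept a level near the serum libraries while replicates 2 and 3 were at or near 0.

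In the metabolic lists 16.7% of fatty acid, 0% of cholesterol and 5.88% of glycolysis genes passed. In the ATF4 and unfolded protein response list 4.17% did, against 3.75% of all genes. Scd1, the desaturase that makes monounsaturated fatty acids, had 267, 184 and 352 normalised reads in serum and 2466, 1289 and 1491 in 2i (2.51 ± 0.50, adjusted p = 0.0119), and Me1, a source of NADPH, rose 3.33-fold from 204, 164 and 218 to 652, 575 and 725 (1.55 ± 0.30, adjusted p = 0.00937); these were 2 of 12 fatty acid genes, with a list median of 0.62, and both lost their calls without serum replicate 2. None of 23 cholesterol synthesis genes passed (median 0.21). The glucose transporter Slc2a1 was the 1 of 17 glycolysis genes that passed, 4.22-fold lower with 4612, 6449 and 2457 in serum and 1009, 1142 and 1051 in 2i (-1.93 ± 0.36, adjusted p = 0.00802; lost without serum replicate 2), and 14 of the 17 had a negative difference with a median of -0.54. Asparagine synthetase, Asns, was the 1 of 24 ATF4 and unfolded protein response genes that rose, from 2732, 2899.6 and 6282 to 9379, 13908 and 11222 (1.61 ± 0.38, adjusted p = 0.0287; lost without serum replicate 1 or 2 or 2i replicate 2 or 3).

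In the metallothionein and selenium list 15.4% passed, in the p53 list 8.7% and in the retinoic acid list 16.7%, against 3.75% of all genes. Of 13 metallothionein and selenium genes 2 passed, in opposite directions. The glutathione peroxidase Gpx2 rose from 5.32, 1.68 and 0 normalised reads to 75.3, 171 and 152 (2.57 ± 0.34, adjusted p = 0.00114) and the selenium carrier Sepp1 fell from 135, 282 and 172 to 16.9, 42.6 and 13.8 (-1.98 ± 0.35, adjusted p = 0.0059), both in all 6 fits without 1 library. Gpx1 (1.30 ± 0.43, adjusted p = 0.115) and the metallothionein Mt1 (1.27 ± 0.48, adjusted p = 0.17) did not. Among 23 p53 targets the BH3-only gene Pmaip1 (Noxa) fell from 1921, 1563 and 992 to 289.8, 97.5 and 124 (-2.92 ± 0.35, adjusted p = 0.000963; -3.47 in control cells), with every 2i library below every serum library. Tigar (listed as 9630033F20Rik), which lowers glycolytic flux, rose (1.21 ± 0.31, adjusted p = 0.043; lost without serum replicate 1 or 2 or 2i replicate 1 or 3). Of 12 retinoic acid response genes the homeobox gene Meis2 rose from 38.8, 22.7 and 12.5 to 115, 408 and 683 (2.65 ± 0.55, adjusted p = 0.0151) and the receptor Rarg fell from 1497, 1037 and 703 to 416, 79.2 and 44.2 (-2.70 ± 0.57, adjusted p = 0.0165), neither passing without serum replicate 2 or 2i replicate 2 or 3, and Rarg not without serum replicate 1.

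Of 22 serum response and YAP targets tested 1 fell (4.55%, against 3.75% of all genes), none rose and the median was -0.40. When 2i replicate 1 was left out, 8 fell and the median was -0.86. Myl9, a myosin light chain controlled by serum response factor, had 38.0, 187 and 43.1 normalised reads in serum and 7.69, 0 and 5.53 in 2i (-1.83 ± 0.44, adjusted p = 0.0336), a call lost without serum replicate 2 or 2i replicate 2 or 3. Calponin genes Cnn1 (-1.53 ± 0.50, adjusted p = 0.106) and Cnn2 (-1.63 ± 0.51, adjusted p = 0.0909) did not pass. A CArG box was in 3 of the 17 promoters of this list given by RefSeq. The Myl9 promoter, shown because it is the passing member of the list, holds 1 (capitals) 161 bases before the start and lies on the plus strand at chr2:156775214-156775513 of GRCm38.p6.
Myl9: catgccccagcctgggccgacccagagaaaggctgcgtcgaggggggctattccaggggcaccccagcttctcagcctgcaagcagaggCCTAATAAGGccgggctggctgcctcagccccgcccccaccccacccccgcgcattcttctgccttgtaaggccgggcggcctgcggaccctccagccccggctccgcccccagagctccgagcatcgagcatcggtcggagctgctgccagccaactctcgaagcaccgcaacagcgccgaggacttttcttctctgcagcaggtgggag

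No ribosomal protein gene (of 56) and no replication-dependent histone gene (of 58) passed. Of the ribosomal protein genes 55 had a positive difference and the median was 0.70. It was 0.21 without 2i replicate 3, 1.24 without 2i replicate 1 (when 9 passed as higher) and -0.22 with the structural RNA share as a covariate. That share also differed between the media (means of 24.8% in serum and 48.3% in 2i), so the covariate may take up part of the medium difference. The cause of the change in sign was not tested. Rpl7a showed the spread, with 2879.6, 3792 and 10614 normalised reads in serum and 5199.6, 14409 and 40426 in 2i (1.56 ± 0.69, adjusted p = 0.237). The histone median was 0.01, ran from -0.49 without 2i replicate 3 to 0.48 without 2i replicate 1 (when 1 rose) and became -0.66 with that covariate. Over all 30 gene lists, 645 distinct genes were tested, of which 23 rose and 37 fell.

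**Figure D4:**
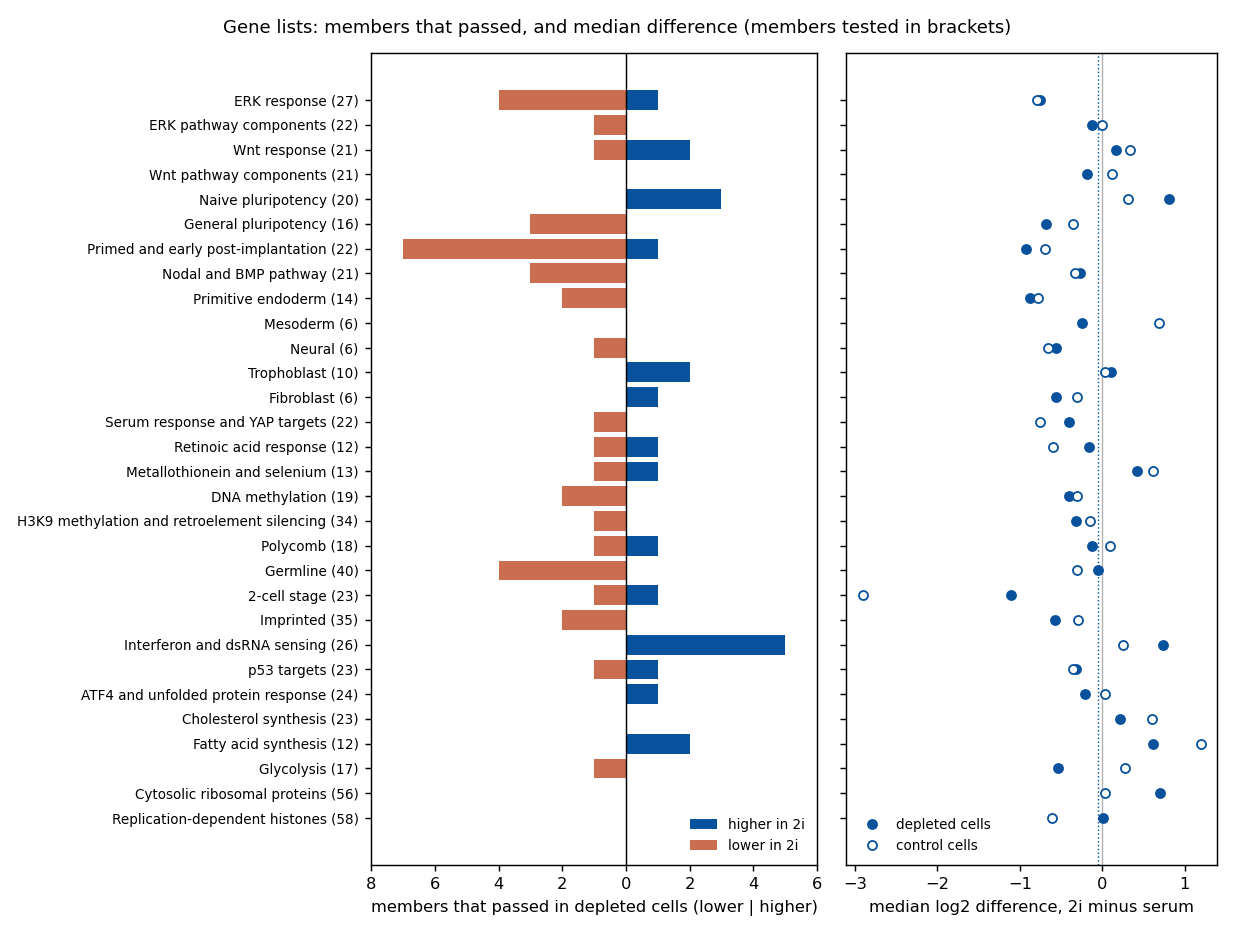
Left, the number of members of each gene list that passed in depleted cells, higher in 2i to the right and lower to the left, with the number tested in brackets; right, the median log2 difference (2i minus serum) of each list in depleted (filled) and control (open) cells, with a dotted line at -0.05, the median of all genes in depleted cells. Of the counts plotted, the primed list has the most falls (7 of 22) and the interferon list the most rises (5 of 26), and the 2-cell-stage medians lie at -1.11 in depleted and -2.90 in control cells.

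On the deposited log2 scale the largest rise was that of Trpm1. Trpm1, a cation channel of retina and melanocytes, had 21.3, 16 and 22.1 normalised reads in serum replicates 1 to 3 and 891, 2436 and 5213 in 2i (5.39 ± 0.50, adjusted p = 0.000102), 144-fold higher on average and 84.1-fold without 2i replicate 3. By the ratio of mean reads Aox3 rose more (150.1-fold). Mitf, the melanocyte factor known to activate Trpm1, was looked up after its values were seen and outside the naming rule: it had 449, 238 and 251 in serum and 1941, 3228 and 3177 in 2i (3.01 ± 0.32, adjusted p = 0.000478). The aldehyde oxidase Aox3 had 9.13, 4.21 and 0 in serum and 1009, 315 and 678 in 2i (4.37 ± 0.50, adjusted p = 0.000649), and Dmgdh, which breaks down dimethylglycine in mitochondria, 1.52, 2.53 and 19.2 and 412, 333 and 672 (3.78 ± 0.35, adjusted p = 0.000102). All of these had no overlap between the media and were higher in 2i in control cells too (Trpm1 5.09, Mitf 2.12, Aox3 2.69, Dmgdh 3.58).

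RefSeq gives 2 starts of Trpm1. The promoter of the first, shown because it is the gene with the largest rise, holds the E-box CATGTG (capitals), a form that MITF can bind, 141 bases before the start and lies on the plus strand at chr7:64153585-64153884 of GRCm38.p6. This motif was chosen after the values were seen, was searched on both strands and stood in 15.9% of all promoters. The promoter of the second Trpm1 start holds it 36 bases after that start, and the Mitf promoters given hold none. Whether MITF acts on Trpm1 in these cells was not tested.
Trpm1: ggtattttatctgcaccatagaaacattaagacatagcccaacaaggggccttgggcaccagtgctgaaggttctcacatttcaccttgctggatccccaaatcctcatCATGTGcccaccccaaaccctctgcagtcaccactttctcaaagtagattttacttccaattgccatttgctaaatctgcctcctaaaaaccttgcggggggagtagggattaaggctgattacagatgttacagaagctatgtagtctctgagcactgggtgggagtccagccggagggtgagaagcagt

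Further large rises kept their calls in all 6 fits. They were the homeobox gene Crxos1 (from 15.2, 21.9 and 39.3 to 497, 1218 and 1925 normalised reads, 47.6-fold, 4.20 ± 0.53, adjusted p = 0.000963), the aspartoacylase Aspa (3.73 ± 0.50, adjusted p = 0.00127), the serpin Serpinb6c (3.68 ± 0.50, adjusted p = 0.0013), the surface antigen Ly6a (Sca-1, 3.47 ± 0.44, adjusted p = 0.00101) and the cysteine dioxygenase Cdo1 (3.38 ± 0.47, adjusted p = 0.00158). Gm13128 (3.35), Gm4222 (3.20), the steroid dehydrogenase Akr1c18 (3.14) and Pramef17 (3.10) belong to the same set. The other 2 of the 15 largest rises that no list holds were fragile. Ifi27l1, with 69.2, 150.3 and 1969 in 2i against 0, 3.37 and 12.5 in serum (3.44 ± 0.76, adjusted p = 0.0212), lost its call without serum replicate 1 or 2, and 4930550L24Rik, with no read in serum and 4.61, 362 and 647 in 2i (3.28 ± 0.81, adjusted p = 0.036), kept it only without 2i replicate 1.

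On the same scale Emb and Foxp1 had the largest falls. By the ratio of mean reads other genes fell more than Emb, Pou3f1 among them (145-fold). That ratio rests on few Pou3f1 reads in 2i, all in replicate 1, and the Pou3f1 call was lost without serum replicate 2 or with voom. Emb (embigin, a partner of monocarboxylate transporters) had 2249, 2439 and 2267 normalised reads in serum and 189, 169.5 and 2.77 in 2i, 19.2-fold lower (-4.36 ± 0.58, adjusted p = 0.00127). The forkhead factor Foxp1 had 603, 887 and 184 in serum and 19.2, 1.02 and 0 in 2i, 82.8-fold lower (-4.01 ± 0.48, adjusted p = 0.000963). The matrix peroxidase Pxdn (-3.20 ± 0.49, adjusted p = 0.00329), the secreted protein Coch (-3.05 ± 0.48, adjusted p = 0.00373) and Gm98 (-3.09 ± 0.51, adjusted p = 0.00437) fell as well, and these 5 kept their calls in all 6 fits. The junction protein Cgnl1 (-3.68 ± 0.78, adjusted p = 0.0167) and the metal transporter Slc39a14 (-3.0 ± 0.74, adjusted p = 0.036) lost theirs without serum replicate 1 or 2 or 2i replicate 2 or 3, and the chromatin remodeller Smarca1 (-3.32 ± 0.71, adjusted p = 0.0174) without serum replicate 1 or 2.

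Depleted cells were then set beside control cells, with which this comparison shares no library, although both take their variance from 1 fit to all 12, so the lists of calls are not independent. In control cells 524 of 14487 genes passed (3.62%), 251 of them higher in 2i (1.73%) and 273 lower (1.88%). Of these, 217 passed in the same direction in depleted cells, which is 40.0% of the calls in depleted cells and 41.4% of those in control cells, and none passed in opposite directions. By sign alone, 529 of the 543 genes called in depleted cells moved the same way in control cells, and over all 14487 genes the 2 differences correlated with a Pearson r of 0.705 (0.371 over 1097 repeat families); these points share the media and the scaling of 1 table, and genes are not independent. The 311 genes higher in 2i had a median of 1.86 in depleted and 1.23 in control cells, and the 232 lower ones -1.74 and -1.31, sizes that favour the depleted cells because the genes were chosen there.

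No gene passed the test of the difference between the 2 medium differences (0%; 2.79% at an unadjusted p under 0.05, and 0 by voom). The smallest p-values were those of Cthrc1, Lum and Kcnf1, none of them passing. Cthrc1, a secreted collagen-triple-helix protein, had 371, 787 and 448 normalised reads in serum-grown and 66.1, 19.3 and 38.7 in 2i-grown depleted cells but 1.09, 0 and 2.14 and 0, 0.69 and 0 in control cells (difference of differences -2.69 ± 0.50, adjusted p = 0.939). Kcnf1, a potassium channel subunit, had 18.3, 5.05 and 0.959 in serum and 219.8, 158 and 315 in 2i, against 6.51, 9.77 and 0 and 15.9, 8.28 and 0 in control cells (2.73 ± 0.57, adjusted p = 1). Lum had at most 2.76 normalised reads in any control library (3.36 ± 0.68, adjusted p = 1). No control library had more than 15.9 normalised reads of any of these 3 genes. Groups with so few reads add little spread, so the SEs and p-values of these genes may understate it.

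**Figure D5:**
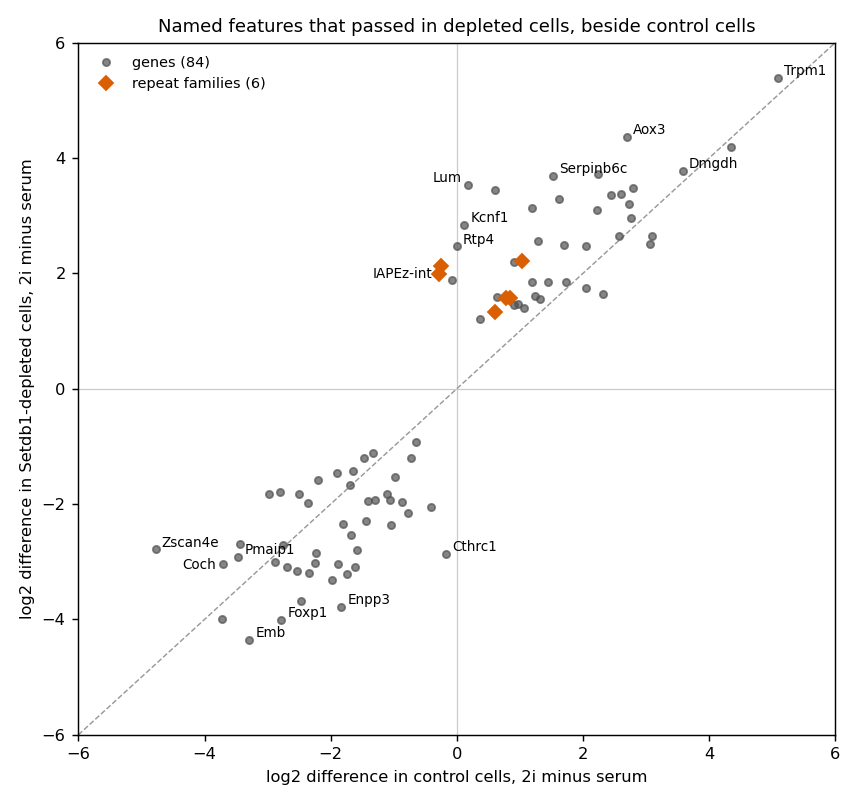
Log2 difference, 2i minus serum, in Setdb1-depleted cells against that in control cells for the 84 genes and 6 repeat families named here that passed in depleted cells; the dashed line marks equal differences. Points were chosen on the vertical axis. IAPEz-int, Lum, Kcnf1, Rtp4 and Cthrc1 lie near 0 in control cells, and Trpm1 and Dmgdh near the line of equality.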

How the data were processed

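The authors deposited variance-stabilised values on a log2 scale, 1 table of 26061 genes and 1 of 1217 repeat families. Per the submitters' processing notes, Trim Galore 0.3.3, TopHat2 2.0.9, DESeq2 and mm9 were used. For the counting tool, the annotation, multi-mapped reads and strand, nothing is given in the sources used here, so near-identical copies, overlapping genes and antisense genes are uncertain. The transformation was inverted, and 100% of values came out whole within 0.01 read; normalised reads and depths come from these reads. Tests used limma 3.58.1 (R 4.3.3) on the deposited values, with 4 group means over 12 libraries, 8 residual degrees of freedom, a variance trend and Benjamini-Hochberg adjustment per table, for features with a mean at least 0.5 above the lowest value. Differences understate changes of features with few reads. The script was tested on simulated reads with known changes and independent libraries, which checks the code and not the calls made here.

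Named features were Setdb1, the 15 largest rises and falls of genes and 10 of repeat families without overlap between groups, list members that passed, up to 2 more per list, and the smallest p-values of the difference between depleted and control cells. Further members that did not pass were named outside this rule, among them Klf2, Nanog, Pou5f1, Dnmt1, Trim28, Ddx58 and the IAP families with negative differences. Mitf and the cell type markers were outside it too. The comparison and the lists were chosen with earlier results of these data known. Alternatives covered scaling, filters, voom, the structural RNA share, a replicate block and leaving out each library. Promoters are RefSeq's (GRCm38.p6).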

Additional observations from a re-analysis of the deposited data

Results flagged for a closer look

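IAPEz-int differed in its response to the medium between depleted and control cells: the 2i minus serum difference was 1.99 in depleted and -0.29 in control cells, and the first exceeded the second by 2.28 (limma adjusted p = 0.0488). IAPLTR1_Mm, the long terminal repeat of these elements, differed by 2.38 (2.13 against -0.25, adjusted p = 0.011). In all 3 libraries of 2i-grown depleted cells both families lay above every other library of the study. Of 20 other settings, IAPEz-int passed in 7 (adjusted p from 0.00208 to 0.305) and IAPLTR1_Mm in 11 (0.00121 to 0.235). Setdb1 in the 2i-grown depleted cells (837, 610.2 and 340.1 normalised reads) was not lower than in the serum-grown ones (418, 379 and 409), apart from replicate 3. The cause of the difference was not tested.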

How the results depend on the processing

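The count of genes that passed in depleted cells was 199 without the filter, 240 with voom, 195 when only the 6 libraries compared were fitted, and 144 to 1514 when 1 of the 12 libraries was left out, against 543. In control cells it was 143 without the filter, 1191 with the structural RNA share as a covariate, 813 with only the 6 libraries and 171 to 779 without 1 library, against 524. Repeat families in depleted cells numbered 12 with the covariate, 2 with only the 6 libraries and 4 to 63 without 1 library, against 6; in control cells they numbered 64 with each library centred on its median, 34 with quantile normalization, 116 without the variance trend and 5 to 269 without 1 library, against 188. For the difference between depleted and control cells, genes numbered 0 to 1 without 1 library and 1 without the filter, against 0. Repeat families there numbered 0 without the filter, with centring, with quantile normalization and without the variance trend, 12 with the covariate and 0 to 2 without 1 library, against 2. The Setdb1 difference kept its side of the threshold throughout (0.17 to 0.77 without 1 library; knockdown minus control -2.56 to -2.12 in serum and -2.51 to -1.91 in 2i). The causes were not tested. Same-numbered libraries of depleted cells deviated together over genes with r of 0.497, 0.005 and 0.439. Replicates 1 and 3 correlated best with their own number and replicate 2 did not, so the numbers were not taken as pairs. Replicate 3 had the highest structural RNA share and the fewest gene reads in each group, and the main fit has no term for replicate number. With a replicate block 1583, 1351 and 0 genes passed for depleted cells, control cells and their difference. Repeat families numbered 36, 278 and 6. Over 180 values of single features, 3182 of 3737 refits kept direction and call, 394 lost the call, 157 gained it, 4 moved and 0 reversed. With 3 libraries a group and 2i replicate 3 at 4821181 gene reads, low-count features of that library carry the largest counting error.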
